A study of Mus musculus with 21 samples.

Results

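The sites described here were places in the mouse genome where the vitamin D receptor (VDR) was found in all 3 intestinal compartments studied, away from gene starts, and where no peak of accessible chromatin was called. They were chosen by which peaks were called and where they lay. A site was a pooled colon VDR peak that shared at least 1 bp with a pooled VDR peak of the small intestinal (SI) crypt and with one of the SI villus, had its midpoint more than 1 kb from every protein-coding transcription start site (TSS), and overlapped no pooled ATAC-seq peak of any compartment. Of the 22882 pooled colon VDR peaks, 5696 were shared with both SI lists and 2391 of those lay within 1 kb of a TSS. An ATAC-seq peak overlapped 2308 of the distal sites, called the open sites below, and 997 had none. Those 997 sites are the subject of this report, and the open sites, which met the same VDR rule, are the set they are compared with. The presence of VDR peaks and the absence of ATAC-seq peaks were therefore given by the choice and are not findings.

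VDR is a nuclear receptor that is activated by 1,25-dihydroxyvitamin D3 (1,25(OH)2D3), the hormonal form of vitamin D. It pairs with the retinoid X receptor and binds DNA best at a DR3, which is a pair of 6-letter half-sites in the same orientation with 3 bases between them. In the intestine the receptor is best known for driving calcium absorption, and many of its binding sites lie far from promoters. Nucleosome-depleted DNA is cut readily by the Tn5 transposase used in ATAC-seq, and regulatory elements that are in use usually appear as ATAC-seq peaks.

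All samples came from C57BL/6 mice by the labels, C57BL/6J in the methods. VDR ChIP-seq was done on 4 samples each of colon epithelium (a mucosal scraping of the whole colon), SI crypts and SI villi (separated from the proximal small intestine, and called crypts and villi below) 1 h after an injection of 1,25(OH)2D3 at 10 ng/g, in mice that the labels give as 4 to 6 weeks old. ATAC-seq was done on 3 samples of each compartment from mice aged 90 days by the labels, while the methods of the study give the ChIP mice as adults of about that age. The methods give no treatment of the ATAC-seq mice, whereas a protocol note in the labels mentions 1,25(OH)2D3. There was no ChIP sample without 1,25(OH)2D3. The ChIP mice gave all 3 compartments, but the labels do not tie samples to mice. The p-values of tests on samples therefore measure the spread between samples and not between mice. Tests of motifs and exons were run over sites of the pooled lists, so their p-values hold no spread between samples.

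The ChIP samples held 10588783 to 17970894 fragments, of which 3100376 to 14716273 were kept by the peak caller, and gave 1136 to 13381 peaks each. Crypt sample 1 stood apart, with the fewest fragments kept (3100376) and the most peaks (13381), and its reads are part of the pooled crypt list. The ATAC-seq samples held 32767083 to 62692175 tags and gave 21269 to 57825 peaks each. Promoters of the epithelial markers Vil1, Epcam, Cdh1, Krt8 and Cdx2 carried a pooled ATAC-seq peak in every compartment, and that of Krt20 in colon and villi. Promoters of the 10 immune cell markers carried 1 peak in colon (Cd68) and 0 in the SI compartments, while stromal markers carried 1 of 10 in colon, 3 of 10 in crypts and 2 of 10 in villi. Lct, the villus lactase gene, had a promoter peak in villi alone, and the colon marker Car1 had none in any compartment, colon included. All 4 crypt markers, Lgr5 among them, also had a promoter peak in villi.

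An exact DR3 lay within 100 bp of the colon summit at 94 of the 997 sites. The sequences below show it at 10 of the strongest of those sites that were called in at least 6 of the 12 ChIP samples. Each is 55 bp of mm9 read 5′ to 3′ on the strand on which it reads as a direct repeat, and capitals mark the 15 letters of the match, its 3 spacer bases included. All 10 summits were intergenic except those near Nfia, Insr and Sez6l, which were intronic.
Tmem189 (chr2:167590748-167590802, minus strand): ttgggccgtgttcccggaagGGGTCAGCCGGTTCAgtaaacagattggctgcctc
Jdp2 (chr12:86914100-86914154, plus strand): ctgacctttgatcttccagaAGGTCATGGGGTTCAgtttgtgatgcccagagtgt
Nfia (chr4:97413390-97413444, plus strand): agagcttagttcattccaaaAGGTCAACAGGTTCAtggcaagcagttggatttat
Slc6a6 (chr6:91614865-91614919, minus strand): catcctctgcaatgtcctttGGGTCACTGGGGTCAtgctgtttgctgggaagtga
Bsg (chr10:79164556-79164610, plus strand): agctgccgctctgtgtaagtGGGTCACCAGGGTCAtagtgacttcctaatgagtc
Sox9 (chr11:112701212-112701266, plus strand): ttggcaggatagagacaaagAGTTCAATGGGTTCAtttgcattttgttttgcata
Insr (chr8:3266808-3266862, plus strand): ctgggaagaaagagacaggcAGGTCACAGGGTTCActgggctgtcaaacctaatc
Sez6l (chr5:112948755-112948809, plus strand): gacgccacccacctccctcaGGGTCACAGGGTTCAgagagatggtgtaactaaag
Ccng2 (chr5:93691332-93691386, minus strand): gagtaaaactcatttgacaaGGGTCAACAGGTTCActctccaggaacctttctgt
Ctla4 (chr1:60932369-60932423, minus strand): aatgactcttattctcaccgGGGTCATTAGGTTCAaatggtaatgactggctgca

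The strongest site with an exact DR3 lay in an intron of Ppard, which encodes a fatty acid-sensing nuclear receptor. Its 300 bp around the colon summit are printed to show how close the repeat, in capitals, lay to the middle of the peak. The centre of the repeat was 2 bp from the summit.
Ppard (chr17:28417934-28418233, plus strand): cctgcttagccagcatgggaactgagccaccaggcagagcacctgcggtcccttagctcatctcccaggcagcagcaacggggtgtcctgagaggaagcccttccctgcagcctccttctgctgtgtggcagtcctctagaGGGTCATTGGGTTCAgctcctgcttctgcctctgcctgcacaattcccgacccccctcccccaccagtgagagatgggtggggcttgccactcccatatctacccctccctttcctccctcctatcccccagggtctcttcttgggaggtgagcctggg

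Many of the strongest sites had no exact match but a repeat that differed at 1 letter. Of the 20 strongest sites, 3 held an exact DR3, 10 a repeat with 1 mismatch, 5 one with 2, and 2 none closer than 3 mismatches. A best match with 1 mismatch was found at 17.9% of the 997 sites, 13.9% of open sites and 1.30% of windows 1 kb from the 997 summits. One with 2 mismatches was found at 24.0%, 30.8% and 12.8%, so it was common beside the summits too. The next 6 sequences are the strongest sites with 1 mismatch, and the mismatched letter is left in lower case inside the capitals.
Meox1 (chr11:101789870-101789924, minus strand): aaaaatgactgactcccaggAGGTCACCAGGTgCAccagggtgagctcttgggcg
Upk3a (chr15:84842513-84842567, plus strand): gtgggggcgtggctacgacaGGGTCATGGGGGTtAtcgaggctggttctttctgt
Slc30a10 (chr1:187310422-187310476, plus strand): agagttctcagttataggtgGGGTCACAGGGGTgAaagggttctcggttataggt
Dact2 (chr17:14368676-14368730, minus strand): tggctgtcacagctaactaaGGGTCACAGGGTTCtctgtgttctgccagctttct
Ddit4 (chr10:59392075-59392129, minus strand): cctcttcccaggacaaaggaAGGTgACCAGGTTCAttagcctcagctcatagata
Spop (chr11:95274204-95274258, plus strand): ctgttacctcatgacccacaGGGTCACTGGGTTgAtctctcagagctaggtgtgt

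The DR3 was far more frequent at the summits of these sites than beside them. Of the 997 sites, 94 (9.43%, 95% Wilson interval 7.77 to 11.4) held an exact DR3 in the 200 bp at the colon summit, against 1 (0.100%) in a 200-bp window 1 kb away and 1 in the summit window read backwards. The difference between summit and flank passed an exact McNemar test (adjusted p = 9.69e-26 over the 20 motifs searched, Benjamini-Hochberg). Every motif was searched on both strands, and a half-site of the repeat was A or G, then G, then G or T, then TCA. Over the whole series, 2.05% of all 22882 colon VDR summits and 0.0913% of 39426 colon ATAC-seq summits held an exact DR3 in a window of the same length. Sites are not animals, so these tests describe the lists of sites.

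The open sites held a DR3 less often, although they had taller VDR peaks. An exact DR3 was found at 65 of 2308 open sites (2.82%, 2.22 to 3.57), so that the odds were 3.58 times as high at the sites without an ATAC-seq peak (95% interval 2.59 to 4.96, adjusted p = 2.52e-13, Fisher's exact test over 20 motifs). With sites of like colon peak significance compared with each other, in 4 bins of −log10 q, the odds ratio was 4.97 (3.52 to 7.03, Mantel-Haenszel). The share was lower with each further compartment in which a shared distal site had an ATAC-seq peak. It was 9.43% with 0 such compartments, 5.88% with 1 (26 of 442), 3.70% with 2 (19 of 514) and 1.48% with all 3 (20 of 1352), while the median colon fold enrichment went the other way, from 3.36 to 4.54, 4.97 and 5.68.

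**Figure D1:**
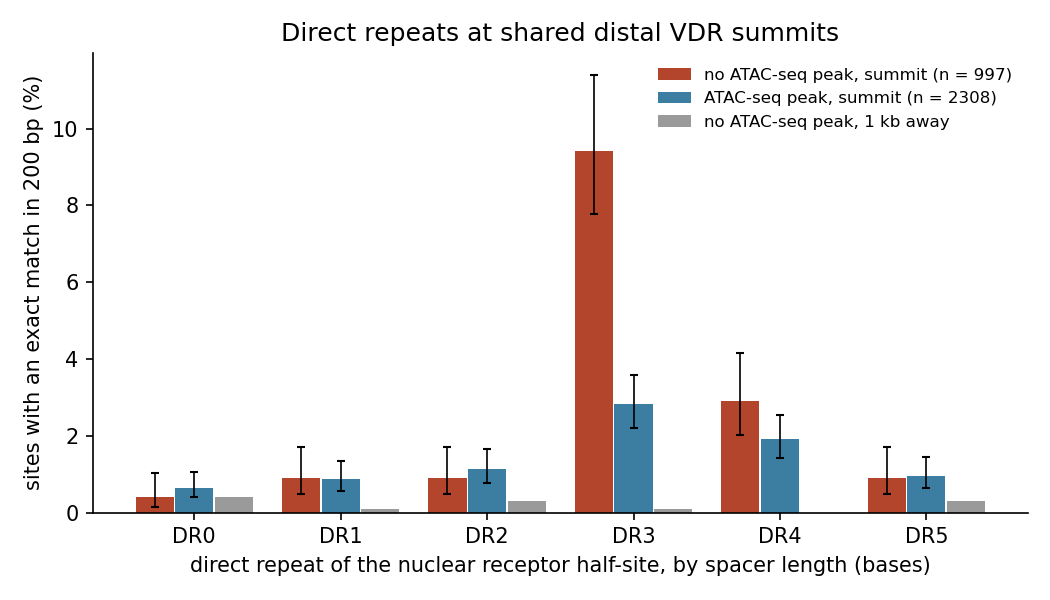
Share of sites (%) with an exact direct repeat of the VDR half-site in 200 bp, by the number of bases between the half-sites, at the colon summits of the 997 sites without an ATAC-seq peak and of the 2308 open sites and in windows 1 kb away. Bars are 95% Wilson intervals, and the DR3 of the 997 sites stands at 9.43% against 2.82% at open sites.

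Among the other direct repeats, the DR4, the spacing preferred by the thyroid hormone and liver X receptors, was also more frequent at the summits. It was found at 29 sites (2.91%) and at 0 flanks (adjusted p = 3.73e-08, exact McNemar test), where a count of 0 of 997 windows allows a share of up to 0.384% (Wilson upper bound). The open sites held it at 44 of 2308 (1.91%), an odds ratio of 1.55 whose interval, 0.967 to 2.48, included 1 (adjusted p = 0.232, Fisher's exact test). The DR0, DR1, DR2 and DR5 occurred at 4, 9, 9 and 9 of the 997 sites, and none passed the test against the flanks (lowest adjusted p = 0.0521, for the DR1, exact McNemar test). A DR3 or a DR4 stood at 119 sites, 4 of which held both.

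The AP-1 and GATA motifs were less frequent at these sites than at open sites. Over all 22882 colon VDR summits the shares were 5.53% for AP-1, 5.52% for GATA and 0.660% for CDX2. The GATA share of the 997 sites was thus near that of all colon peaks, and the open sites lay above it. The flanks of the 2308 open sites held AP-1 at 96 and GATA at 123. The AP-1 motif (TGA, C or G, TCA), bound by Jun and Fos dimers, was found at 42 of the 997 summits (4.21%) against 27 flanks (adjusted p = 0.247, exact McNemar test) and 43 of the windows read backwards. At the open sites it was found at 204 of 2308 (8.84%), an odds ratio of 0.458 (0.326 to 0.643, adjusted p = 1.57e-05, Fisher's exact test). The GATA motif (A or T, GATAA, C or G, then any base but T), bound by the zinc finger factors GATA4 and GATA6 in this tissue, was found at 58 sites (5.82%) and 52 flanks, against 209 open sites (9.06%), an odds ratio of 0.624 (0.462 to 0.842, adjusted p = 0.0113, Fisher's exact test). The motif of CDX2, the intestinal homeobox factor (TTTTAT, G or T, GC), was at 1 site, 6 flanks and 20 open sites (odds ratio 0.168, adjusted p = 0.0387, Fisher's exact test). Among sites of like peak significance the Mantel-Haenszel odds ratio was 0.488 for AP-1 (0.344 to 0.692) and 0.593 for GATA (0.437 to 0.806), while that for CDX2 had an interval that included 1 (0.160, 0.0226 to 1.13), so that its call was lost. The HNF4A motif was at 10 sites and 50 open sites (odds ratio 0.476, adjusted p = 0.0899, Fisher's exact test), which did not pass. The KLF, ETS, HNF1, FOXA and CEBP motifs did not pass either, with odds ratios of 0.714, 0.461, 0.462, 1.13 and 2.32 and adjusted p of 0.232 to 1 (Fisher's exact test).

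A DR3 was found more often in taller VDR peaks, given here as a description. Among the 997 sites the share was 2.42% below a colon fold enrichment of 3 (10 of 414), 7.18% from 3 to 4 (13 of 181), 13.3% from 4 to 6 (22 of 165), 18.9% from 6 to 10 (30 of 159) and 24.4% from 10 up (19 of 78). Open sites in the same ranges held 0 of 432, 6 of 359, 15 of 532, 15 of 567 and 29 of 418 (6.94%). The share was higher at the sites without an ATAC-seq peak in each of the 5 ranges, and 20 of the 100 strongest of them held a DR3 against 9 of the 100 strongest open sites. The 94 sites with a DR3 had a median fold enrichment of 6.17 in colon, 7.32 in crypts and 7.90 in villi, against 3.20, 3.71 and 3.79 at the other 903.

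**Figure D2:**
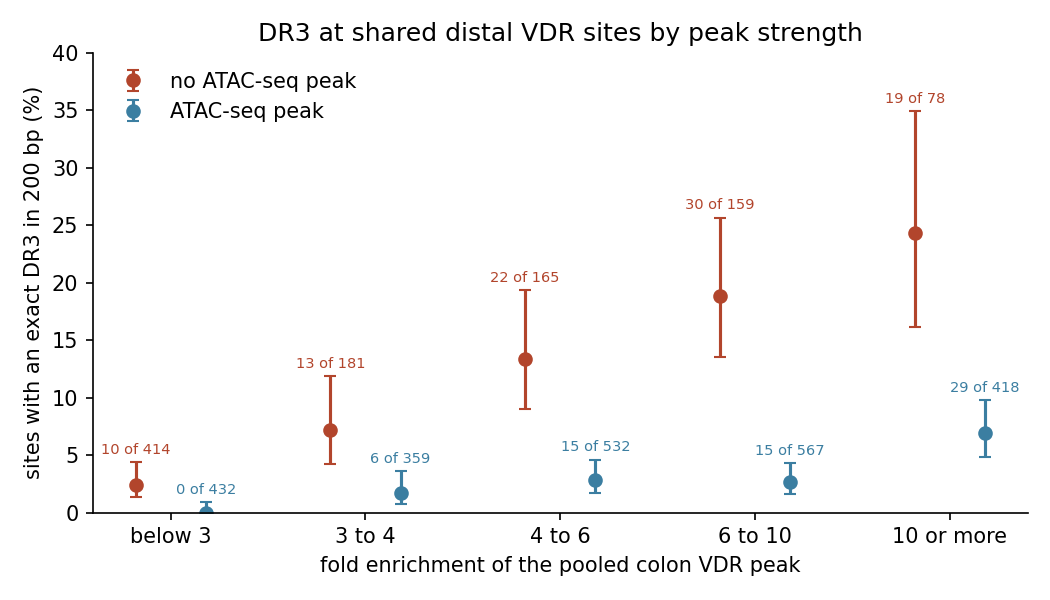
Share of sites (%) with an exact DR3 in 200 bp at the colon summit, by fold enrichment of the pooled colon VDR peak, for the 997 sites without an ATAC-seq peak and the 2308 open sites. Points are shares with 95% Wilson intervals and counts, and the first set lies above the second in each of the 5 ranges, at 24.4% against 6.94% in the highest.

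The repeats lay at the summits themselves. The centre of the DR3 was within 20 bp of the colon summit at 63 of the 94 sites and within 50 bp at 83, with a median of 9.5 bp. At the 65 open sites with a DR3 the median was 6 bp, and 41 lay within 20 bp. The upstream half-site was AGGTCA at 43 of the 94 sites and GGGTCA at 27. The downstream half-site was GGTTCA at 57, and the last spacer base was G at 57. The pair AGGTCA and GGTTCA made up 27 of 94 repeats (28.7%) here and 6 of 65 (9.23%) at open sites, a difference that was noticed in the data and not tested.

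**Figure D3:**
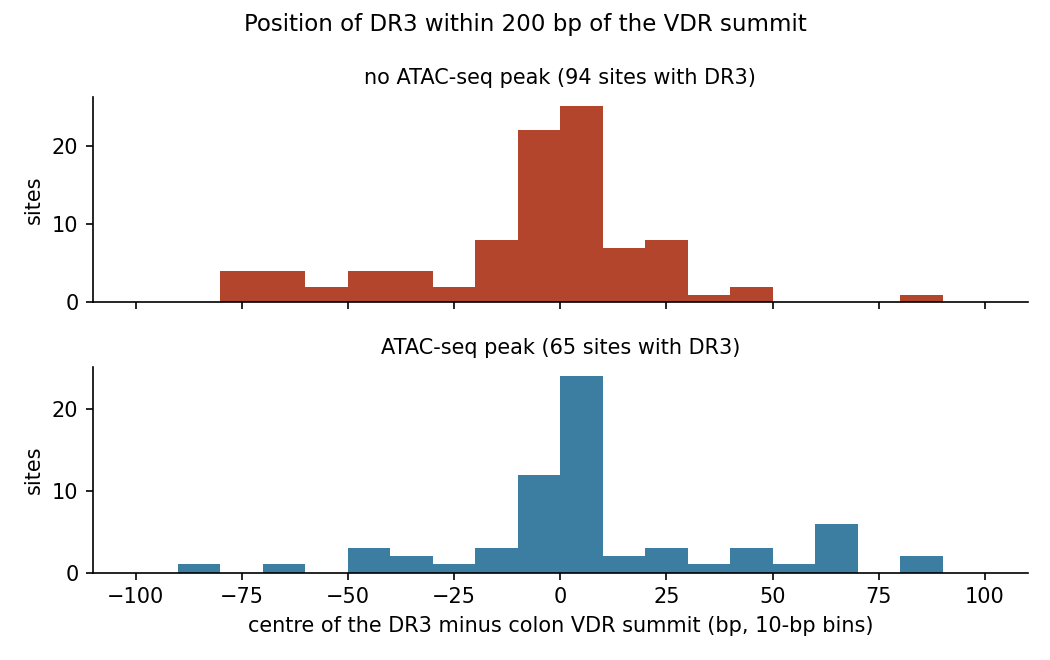
Distance (bp) from the colon VDR summit to the centre of the nearest exact DR3 in the 200 bp centred on the summit. Each site without an ATAC-seq peak and each open site that held a DR3 counts once. Most repeats lie close to 0 in both sets, with 63 of 94 and 41 of 65 within 20 bp.

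As a group the 997 sites were weaker than the open sites, but the strongest of them lay far above the median of the open sites. Their median −log10 q, the significance given by the peak caller, was 10.98 in colon, 10.5 in crypts and 12.9 in villi, against 20.4, 13.5 and 20.2 at open sites. Their median fold enrichment over the local background was 3.36, 4.02 and 4.01, against 5.24, 5.18 and 5.66. The highest −log10 q among the 997 sites was 397 in colon, 491 in crypts and 649 in villi, against 929, 1752 and 2325 at open sites. Across the 997 sites the fold enrichment of colon and crypts had a Spearman correlation of 0.835, that of colon and villi 0.772, and that of crypts and villi 0.887; these are descriptions across sites that share libraries. GC content in the summit window was the same in both sets (median 51.5%).

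The highest site of all by mean rank lay between genes, 34.2 kb upstream of Meox1, a homeobox gene of somite development. Its −log10 q was 55.7, 111, 87.7 and 139 in the 4 colon samples, 109, 99.7, 39.8 and 63.2 in crypts, and 173, 224, 50.2 and 40.7 in villi. It was called in all 12 samples, and the ranges of the compartments overlapped. The nearest ATAC-seq peak was 1209 bp away in villi and 17749 bp away in colon. Next came a site 5.03 kb upstream of Upk3a, a uroplakin gene of the urothelium, with pooled −log10 q of 265, 319 and 649 in colon, crypt and villus and an ATAC-seq peak 214 bp away in crypts.

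The Ppard site, 8.95 kb into the gene, was not called in colon sample 1. It had a −log10 q of 63.8, 76.0 and 92.2 in the other colon samples, 141, 191, 43.3 and 98.9 in crypts, and 284, 275, 74.2 and 28.2 in villi. The villus samples thus spanned a range that covered those of the other compartments, apart from the colon sample without a call. Its fold enrichment, 6.77 in colon, 11.7 in crypts and 14.4 in villi, was lower than that of the Meox1 site (28.5, 26.7 and 30.1). The site 75.5 kb upstream of Tmem189, which encodes an enzyme of plasmalogen synthesis, reached 212, 491 and 574 in the pooled lists, with a call in each of the 12 samples.

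A site 31.7 kb downstream of the start of Slc30a10, a manganese exporter gene, reached 397 in colon, 316 in crypts and 250 in villi. It was called in all 12 samples and its nearest ATAC-seq peak was 1920 bp away. Weaker sites without an ATAC-seq peak lay 7.09 kb upstream of the same gene and 12.2 kb downstream of its start, in its UTR (colon fold enrichment 1.69 and 2.21 against 14.4). Other sites among the 20 strongest were near Sik3 (a kinase of the AMPK family), Soat1 (a cholesterol esterification enzyme), Dact2 (a Dishevelled-binding protein of Wnt signalling), Plac8, 4933428G20Rik (in an intron of Srcin1), Ddit4 (an inhibitor of mTORC1), Spop (a ubiquitin ligase adaptor), Jdp2 (a repressor of the AP-1 family), Tsku, Synpo (an actin-associated protein), Gm10463 (in an intron of Bre), Ccng2 (cyclin G2), Dynll2 (a dynein light chain) and Nfkb2 (an NF-κB subunit). Among the 20 strongest, the sites named here were intergenic apart from those in introns of Ppard, Soat1, Srcin1 and Bre.

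**Figure D4:**
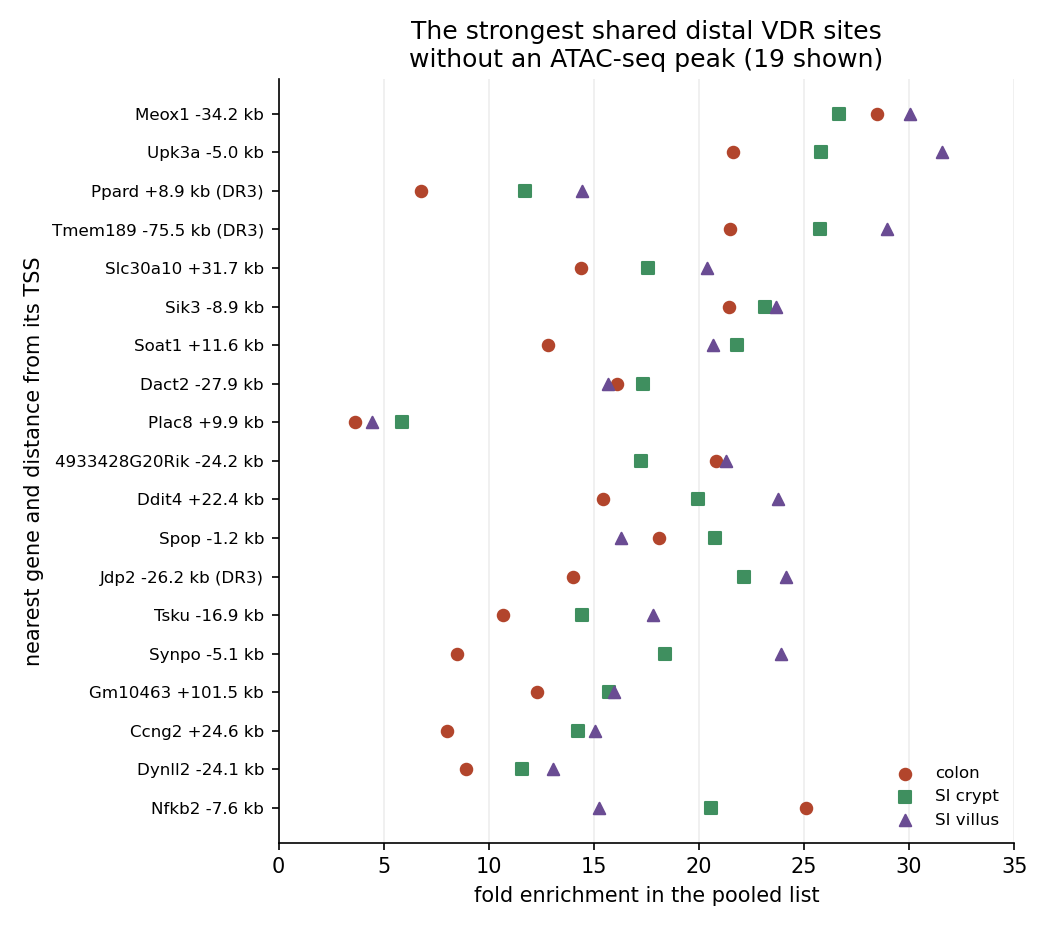
Fold enrichment of the VDR peak in the pooled colon, crypt and villus lists at 19 of the 20 strongest shared distal sites without an ATAC-seq peak, named by nearest protein-coding gene with the distance to its TSS in kb. The Meox1, Upk3a and Tmem189 sites lie above 20 in all 3 compartments, while the Plac8 site lies between 3.65 and 5.86.

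Calls in every sample were rare at these sites, as they were over all pooled colon VDR peaks. A peak of all 12 ChIP samples overlapped 13 of the 997 sites, and the same was true of 114 of the 2308 open sites and of 0.865% of all pooled colon VDR peaks. A site was called in a median of 3 samples, against 5 for open sites, and 280 sites were called in at least 6. At 59 sites no single sample had a peak, so those stood on the pooled lists alone, as did 80 of the 2308 open sites. Of the 94 sites with a DR3, 43 were called in at least 6 samples, against 237 of the 903 without one. At open sites the counts were 45 of 65 with a DR3 and 970 of 2243 without.

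The share of the 997 sites called was 13.6, 30.2, 48.9 and 55.7% in the 4 colon samples, 53.3, 23.5, 13.7 and 33.4% in crypts, and 49.7, 30.8, 15.0 and 41.8% in villi. The share of open sites called was 22.3, 54.8, 58.0 and 72.0% in colon, 52.0, 31.5, 21.0 and 38.0% in crypts, and 60.1, 49.1, 27.3 and 48.2% in villi. Over the 12 samples the sites without an ATAC-seq peak averaged 34.1% ± 15.6 (SD) and the open sites 44.5% ± 16.3, a difference of -10.4 percentage points that was lower in 11 of 12 samples (p = 0.000977, two-sided exact sign-flip permutation test). Crypt sample 1 was the exception, and without it the difference was -11.4 points. When sites of like pooled significance were compared, in 4 bins of the colon −log10 q, the difference was -1.99 points and no longer passed (p = 0.213, exact sign-flip permutation test, lower in 8 of 12 samples). Within a compartment the difference was -14.7 points in colon, -4.63 in crypts and -11.8 in villi, and 4 samples cannot give a p below 0.125 in this test. The p-values over all 12 samples count every sample as a separate unit. Colon, crypts and villi were taken from 1 group of mice, so the independent units may be fewer. With 4 mice as the units the same lower bound of 0.125 would hold, so no call is made at the level of mice.

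**Figure D5:**
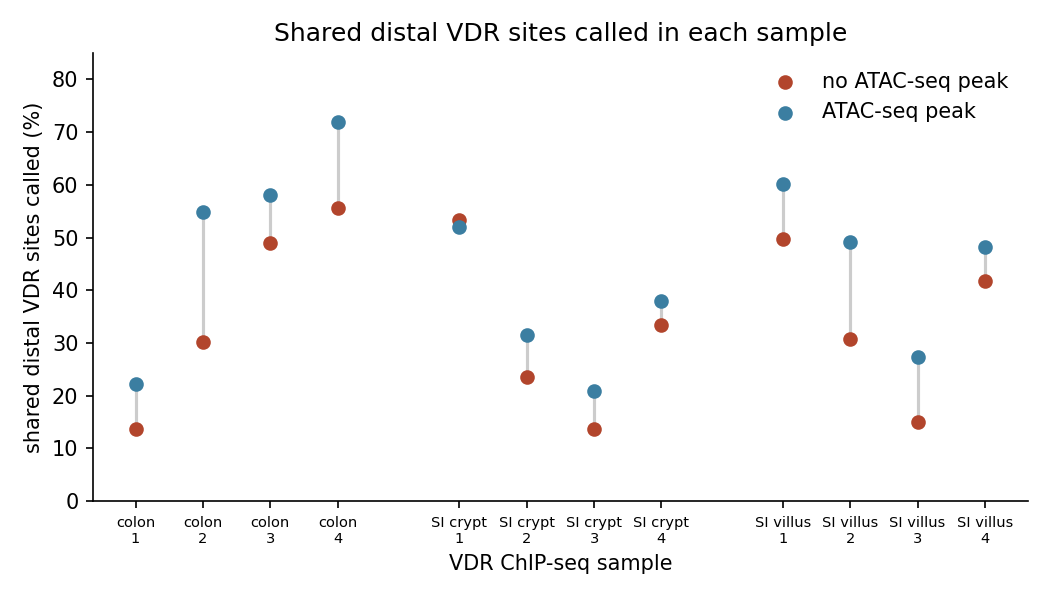
Share (%) of the 997 sites without an ATAC-seq peak and of the 2308 open sites that overlapped a peak of each of the 12 VDR ChIP-seq samples, by compartment. Each line joins the shares of 1 sample, and the open sites are higher in 11 of 12 samples, crypt sample 1 being the exception.

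Differences between compartments in the share of the sites called per sample passed no test. The share was 37.1% ± 19.0 in colon, 31.0% ± 16.9 in crypts and 34.4% ± 15.0 in villi (SD, 4 samples each), and the adjusted p was 0.886 for each of the 3 pairs (exact permutation tests). The number of peaks per sample, from 1760 to 10100 in colon, 1136 to 13381 in crypts and 1535 to 10384 in villi, bears on these shares. So does the rule, which asked for a pooled peak in all 3 compartments, and these samples made up the pooled lists. No likeness of the compartments is therefore read from the comparison.

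Single sites did differ in the sets of differential VDR binding that were deposited with the peaks, which give positions and no values. The set higher in crypts than in colon covered 46 sites (4.61%, against 0.634% of all pooled colon peaks), and the set higher in villi than in colon covered 60 (6.02%, against 1.15%). At the open sites the shares were 2.90% and 5.81%. The sets higher in colon covered 10 sites against crypts (1.00%, background 2.49%) and 23 against villi (2.31%, background 4.08%). They covered 0.823% and 2.21% of the open sites. The backgrounds over all colon peaks hold peaks that no SI list shared, so sharing itself bears on the contrast and nothing is read from it. The set higher in crypts than in villi covered 2 sites (background 0.363%), near the ribosomal protein genes Rpl10a and Rps2, and the opposite set 0 (background 0%). In all, 107 of the 997 sites (10.7%) lay in some set, 16 of them with a DR3, and 890 lay in none. The matching share of the open sites or of all colon peaks was not counted, so nothing is read from this total.

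Among the sites higher in SI was the one 26.2 kb upstream of Jdp2, which was in the sets for both SI compartments. Its −log10 q was 10.1 and 31.1 in colon samples 2 and 4, with no call in the other 2, against 32.7, 61.3, 31.4 and 42.2 in crypts and 89.3, 76.8, 42.8 and 59.5 in villi. Every SI sample was above every colon sample, though crypt sample 3 (31.4) only just exceeded colon sample 4 (31.1). The differential sets were made from these same samples, so the values at sites picked from the sets are a description and no test. The Synpo site, 5.14 kb upstream, was called in 2 colon samples at 5.64 and 36.3 and in all SI samples, at 28.9, 39.8, 16.2 and 28.6 in crypts and 143, 141, 37.5 and 39.2 in villi. All villus values were above the colon values. Sites near Tomm20, a mitochondrial import receptor gene (pooled −log10 q 33.3 in colon, 196 in crypts, 381 in villi), Tctn1 (33.8, 183 and 311), Ddit4 (92.9, 148 and 377), Gadd45b, a stress response gene (51.3, 175 and 163), Armc9, Dact2 and Tmem189 were also in an SI set.

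The site 4.93 kb upstream of Ccng2, a cyclin gene linked to growth arrest, was in the set higher in colon than in villi. Its −log10 q was 15.1, 80.6, 82.3 and 136 in colon, 39.4, 10.2 and 42.8 in 3 crypt samples with no call in sample 1, and 7.33 and 18.6 in villus samples 3 and 4 with no call in samples 1 and 2. The colon range overlapped the villus range only through colon sample 1. Another Ccng2 site, 24.6 kb downstream of the start, ran the other way in the pooled lists (53.9 in colon, 128 in crypts and 273 in villi) and was in no set. Sites near Ptges, a prostaglandin E synthase gene (247 in colon against 15.1 in crypts), Cdkn1a, a cell cycle inhibitor gene (29.6 against 10.1), Ceacam1 (where 2 sites were listed) and Trpc1 were in the set higher in colon than in crypts. The Ptges site had 51.0 in villi, was called in 3 colon, 1 crypt and 4 villus samples, and lay in no set against villi. Sites near Ly86, Car12, Taf1d and Brd1 were in the set higher in colon than in villi. Pooled fold enrichment ran against the set at both Ceacam1 sites (2.40 in colon against 2.97 in crypts, and 2.21 against 2.60) and at the Taf1d site (3.66 in colon against 4.76 in villi).

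The sites with a DR3 covered genes of several kinds. Near Sox9, a transcription factor gene of the crypt, the site lay 55.2 kb downstream of the start, and its −log10 q was 42.4, 47.4 and 80.9 in colon samples 2 to 4, 78.6, 21.8 and 53.2 in crypt samples 2 to 4, and 5.73, 5.08, 14.1 and 15.4 in villi. Sample 1 of colon and of crypts had no call, while all 4 villus samples had one. Each villus value was below those of the colon and crypt samples with a call. The Sox9 site lay in no differential set. The Insr site, in an intron of the insulin receptor gene, had a pooled −log10 q of 32.0 in colon, 86.2 in crypts and 210 in villi. Those near Nfia (a transcription factor gene), Slc6a6 (the taurine transporter gene), Bsg (basigin, a partner of lactate transporters), Ctla4 (an inhibitory receptor gene of T cells), Sez6l and Cck (cholecystokinin, the site being in an intron of Trak1) were called in 9 to 11 samples. The DR3 of the Elf4 site lay in a coding exon and that of the Bag2 site in a UTR of Zfp451.

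The single ATAC-seq samples are part of the pooled lists that chose the sites, so their peaks are given as a description. Each of the 9 ATAC-seq samples had a peak at 1 to 11 of the 997 sites (0.100 to 1.10%), against 42.1 to 74.8% of the open sites. A peak of at least 1 single sample overlapped 51 sites, of at least 2 samples 4 sites, and 946 sites overlapped none; 92 of the 94 sites with a DR3 were among those 946. The lists hold no read depth, so a site without a peak had less signal than the caller's threshold at this depth and is not shown to be inaccessible. Many sites were close to accessible DNA: the nearest pooled peak of any compartment was a median of 2258 bp away, within 500 bp at 194 sites, and over 10 kb away at 135. The share with a DR3 was 8.77% at sites within 1 kb of an ATAC-seq peak (27 of 308), 9.21% from 1 to 10 kb (51 of 554) and 11.9% beyond (16 of 135).

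In the gene annotation, 411 summits were intergenic (41.2%), 435 intronic (43.6%), 69 in coding exons (6.92%) and 82 in UTRs (8.22%). Exons held 151 of the 997 summits (15.1%) and 160 of the 2308 open summits (6.93%), an odds ratio of 2.40 (1.89 to 3.03, p = 8.12e-13, Fisher's exact test, a test added after the counts were seen). The exonic sites were weak, with a median colon fold enrichment of 2.48, and 8 of 151 held a DR3 (5.30%), against 34 of 411 intergenic sites (8.27%) and 52 of 435 intronic sites (12.0%). Below a colon fold enrichment of 3, 107 of 414 sites (25.8%) were exonic, against 44 of the other 583 (7.55%). A width of 1000 bp or more was found at 103 sites, none of which held a DR3.

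The median distance to a TSS was 12.1 kb, against 16.6 kb at open sites. The 997 sites had 844 different nearest genes, 741 of which had 1 site and 27 at least 3, and with sites less than 50 kb apart joined they formed 810 runs. Pfdn4, a prefoldin subunit gene, was nearest to 9 sites. Of those, 8 lay over Cyp24a1 (chr2:170308208-170322645), the gene of the enzyme that inactivates 1,25(OH)2D3, with colon fold enrichments of 1.30 to 2.46 and no DR3. Plac8 was nearest to 6, with a median colon fold enrichment of 2.01, and Epcam, Errfi1 and Klf3 to 5 each. S100g, the gene of the calcium buffer calbindin-D9k, had 4 sites at 1.32 to 3.67 kb, in introns of the overlapping gene Ctps2. All 4 overlapped a single villus peak with a −log10 q of 15.3 and none held a DR3.

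A site whose midpoint was within 10 kb of the nearest TSS was linked to that gene. This gave 398 genes, 1.79% of the 22225 protein-coding gene names, and 21 of the 149 genes on 12 lists of known function (14.1%). The lists were drawn up with earlier results of these data known, so the count is a description. Growth control genes had 5 of 14 linked: Btg2, Ccng2, Cdkn1a, Cdkn2b and Smad3. Among metal transport genes 3 of 12 were linked, the metallothioneins Mt1 and Mt2 and Slc30a10. Slc30a10 was linked by its weak site 7.09 kb upstream (colon fold enrichment 1.69, called in 1 crypt and 1 villus sample). Its strong site at 31.7 kb lay beyond the limit of 10 kb. Links were made at any peak strength. The Mt1 and Mt2 sites had pooled −log10 q of 79.5 and 64.2 in crypts and 102 and 91.1 in villi, against 7.64 and 8.53 in colon. In the single samples the Mt1 site was called in 0 colon, 1 crypt and 1 villus sample and the Mt2 site in 1 of each, and neither lay in a differential set. Of the intestinal transcription factors, Elf3, Gata6 and Klf5 were linked (3 of 16), and of calcium transport genes Cldn15, a pore-forming claudin, and S100g (2 of 12).

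Other lists had 2 linked genes or fewer. They were Nr1d1 and Ppard of 19 nuclear receptors, Myo1a and Shroom3 of 12 genes of junctions and cytoskeleton, Mafk of 12 genes of heme and oxidative stress, Gstm3 of 11 xenobiotic genes, Tcf7l2 of 10 stem cell and Wnt genes, and Itgam of 10 immune genes. The 11 genes of the vitamin D receptor, its partners and its metabolism and the 10 stromal genes had 0. For Cyp24a1 the 0 comes from the rule, which gave the 8 sites lying over it to Pfdn4, whose TSS was nearer. Rxra and Vdr were reached within 50 kb, by a site 49.4 kb from the Rxra start (pooled −log10 q 23.8 in colon, 55.5 in crypts and 82.6 in villi) and by an intronic site 19.9 kb into Vdr (2.73, 6.82 and 6.51). Within 50 kb 29 of the 149 listed genes were reached (19.5%, against 3.33% of all names) and within 100 kb 32. The Abcg2 site, in an intron of this drug efflux pump gene and 17.8 kb upstream of its nearest annotated TSS, had a pooled −log10 q of 92.9 in colon, 17.9 in crypts and 28.1 in villi and held a DR3 with 1 mismatch. So did a weaker site 42.9 kb upstream of Atp2b1, the plasma membrane calcium pump gene (17.8, 9.56 and 7.88), which was called in 1 sample. A best match with 1 mismatch was found at 17.9% of the 997 sites.

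The sites nearest to each limit of the rule were as follows. The closest to a TSS were at 1.00 kb from Ticam1, 1.01 kb from Twsg1 and 1.04 kb from Agpat1, and the closest left out were at 0.987, 0.986 and 0.980 kb from Pcnx, Ckmt1 and Gdf1. The Elf4 site was 1 bp and the Ctdsp1 site 2 bp from an ATAC-seq peak, while sites near Prkg2, Pitpnb and Atp5l overlapped one by 1 bp and so counted as open. The lowest −log10 q over the 3 lists was 1.39 at the Sdf4 site, 1.52 at AA986860 and 1.61 at Chd2.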

How the data were processed

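VDR ChIP-seq peaks of 12 samples and ATAC-seq peaks of 9 samples on the mm9 assembly were used, with the pooled list of each compartment. Per the submitters' processing notes, the tools included Bowtie2 (2.2.6), SAMtools (0.1.19), Picard (2.18.27), MACS2 (2.1.0.20150731) and DiffBind. The authors called peaks with MACS2 at q 0.05, per sample and on merged alignments, and removed blacklisted regions; no input control is named in the file headers. The deposited −log10 q values and fold enrichments are those that MACS2 gave against its local background, and the pooled intervals of the authors were re-centred on the summit with their length kept. The 6 deposited sets of differential binding give positions only. The files hold no read counts per region, so no count model was fitted, and intervals of shares cover counting error only.

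Members and gene lists were chosen with earlier results of these data known. Overlap meant 1 bp or more, a TSS was that of any protein-coding transcript of the mm9 annotation (22367 genes placed), and genes were linked within 10 kb as in the methods of the study. The 20 motifs were searched in 200 bp at the summit, on both strands, and in a window 1 kb to 1 side. Summits were compared with flanks by an exact McNemar test and with open sites by Fisher's exact test (0.5 added to each count for the odds ratio), with Benjamini-Hochberg adjustment over the 20 motifs and a threshold of 0.05. Samples were compared by two-sided exact permutation tests, adjusted over 3 pairs, where 4 against 4 samples cannot give a p below 0.0286. Crypt and villus samples with the same number deviated together over the sites (correlations of 0.228 to 0.392 in all 4 pairs, each best with its own number). Colon and crypt samples of the same number had 0.0165 to 0.273, and numbers 1 and 2 were best with their own number. Colon and villus samples had -0.303 to 0.0889, and none was best with its own number. The numbers may thus pair crypts and villi, on these data and not by the labels, while a pairing with colon stayed unclear. The tests between compartments are unpaired, and the replicate block was run for all 3 pairs as an alternative. No 2 samples had identical lists.

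Named sites were the 20 of lowest mean rank by −log10 q over the 3 pooled lists, up to 15 with a DR3 called in at least 6 samples, those nearest to a listed gene within 100 kb, up to 5 per differential set, the 3 on each side of a limit and the genes with the most sites. The half-site pairs, the exon test and the sites over Cyp24a1 were looked at after the data were seen. The calculations used Python 3.11.15 with numpy 2.4.6 and scipy 1.17.1 and were tested on simulated data. Not every site picked by this rule is reported here, and none of the 30 sites on chromosome 18 is shown as sequence.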

Additional observations from a re-analysis of the deposited data

How the results depend on the processing

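Of 80 values under other settings, 65 kept their direction and their side of the threshold or moved little, 10 reversed, 2 fell short of the test and 3 moved. The number of sites was 624 when a −log10 q of at least 5 was required in all 3 pooled lists, and lay between 723 and 1033 when overlap, TSS distance or the ATAC-seq peaks were defined in other ways. Genes linked rose from 398 to 741 at 50 kb and 802 at 100 kb. The odds ratio of the DR3 against open sites kept its direction and its call throughout, from 1.87 with 1 mismatch allowed to 6.12 in bins of fold enrichment, the latter chosen after seeing the data, as were the bins for AP-1, GATA and CDX2, the runs within 50 kb, the exon filter and the single TSS per gene. The lower share of these sites called per sample (-10.4 points) was -1.99 in bins of peak significance, which ended the call, and -11.4 to -9.08 without 1 sample; the cause was not tested.

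The differences between compartments in the share of sites called reached no call under any setting. Given as the share of a sample's own peaks that lay at these sites, they reversed to -2.67 points for colon minus crypts, -0.415 for colon minus villi and 2.26 for crypts minus villi, and with single-sample peaks of −log10 q of at least 5 colon minus villi was -0.602. Without 1 sample they ran from -0.0418 to 13.97, from -3.68 to 10.6 and from -10.8 to 2.36. With the replicate block the values stayed at 6.14, 2.76 and -3.39 (adjusted p = 1 for each, exact sign-flip permutation test), but 4 pairs cannot give a p below 0.125, so pairing could not have made a call and this says nothing about stability. Sites below the caller's threshold in a shallow sample cannot be told from absent ones, and the lists hold no read depth at sites without a peak.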

Other observations

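A few sites held more than 1 exact DR3 at the summit. The site nearest to Brd1, 337 kb away, held 5 and was called in 6 samples, with a pooled −log10 q of 61.8 for colon, 23.7 for crypts and 10.2 for villi. The Sh3bgr site, in an intron, held 4 (43.3, 15.0 and 9.91), and sites near Osgep, Trak1 and Smox held 2 each. The Trak1 site ran the other way along the intestine, at 7.76 for colon, 81.9 for crypts and 366 for villi, with 1 of 4 colon samples and all 8 samples of the small intestine calling it. These 5 sites were chosen after their values were seen.

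Over the 997 sites, villus samples 1 and 2 had a Spearman correlation of −log10 q of 0.733 and samples 3 and 4 one of 0.548, with 0.312 to 0.402 between those pairs. Crypt sample 1 was most like villus sample 1 (0.472) and had 0.228 to 0.263 with the other crypt samples. Colon sample 1 had 0.111 with colon sample 4. Uncalled sites count as the lowest value here, so the correlations also carry the number of peaks in each sample.

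The 3 sites nearest to Gm3395 lay on chromosome Y, 304 to 339 kb from that gene, with colon fold enrichments of 1.52 to 2.36 and no DR3. Repeats were not annotated here.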
